A study of Mus musculus with 22 samples.

Results

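The comparison described here sets a pair of deep sea waters against each other in mouse colon with chemically induced colitis: 4 libraries of mice that drank the water labelled HMLS and 5 libraries of mice that drank the water labelled TM. These 9 of the series' 22 libraries were chosen by their labels alone (HMLS3, HMLS6, HMLS7 and HMLS8 against TM3, TM5, TM6, TM7 and TM8), and no measured value entered the choice. All mice were wild type BALB/c, and whole colon was sequenced. Per the labels, each group drank its water for 3 weeks from 5 weeks of age, and in the last week HMLS and TM mice received 5% dextran sulfate sodium (DSS) dissolved in that same water. The DSS group (5 libraries) received 5% DSS in distilled water, and the CON group (8 libraries) drank distilled water without DSS. The series' design text gives the age at colitis induction as 8 weeks. The labels do not expand the abbreviations HMLS and TM, and no mineral content of either water is given in the sources used here. There is no library of HMLS or TM water without DSS among the 22, so the waters are compared in inflamed colon only. The labels do not say whether the libraries of a group are separate mice, so the p-values measure the spread between these libraries.

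Deep sea water is drawn from below the sunlit layer and is given to animals as a source of minerals such as magnesium and calcium. DSS, a sulfated polymer, injures the colonic epithelium; luminal bacteria then reach the lamina propria, where macrophages, neutrophils and lymphocytes respond. Resident gut macrophages take up bacteria and dying cells, make the complement recognition protein C1q and lysozyme M, and show peptides to T cells on MHC class II, while goblet cells above them secrete the mucus that keeps bacteria at a distance. In whole colon, fewer cells of a type and less RNA per cell cannot be told apart.

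No gene passed the threshold between HMLS and TM. Genes whose 4 HMLS libraries all lay below the 5 TM libraries included the 3 C1q chains, lysozyme M (Lyz2), the MHC class II chain H2-Ab1, the plasma cell genes Mzb1 and Pou2af1, the nitric oxide synthase Nos2 and the adhesion molecule Vcam1. By p the higher side was led by the fatty acid desaturase Scd1 (log2 difference 0.98), and by size, among the named genes, by Cyp2e1 (2.49), Cfd (2.201) and Car3 (2.195), whose libraries overlapped. Cfd, the adipose complement factor D, was picked after its values were seen. Of 13341 genes with at least 1 FPKM (fragments scaled for transcript length and library size) in at least 4 of the 14 libraries given DSS, limma called 0 higher and 0 lower at a Benjamini-Hochberg adjusted p under 0.05, which is 0% in each direction, and the smallest adjusted p was 0.278. At an unadjusted p under 0.05 the same fit gave 1260 genes (9.44%), of which 662 were higher in HMLS (4.96%) and 598 lower (4.48%). Every fitted difference below is HMLS minus TM on the scale of log2(FPKM + 1) with its standard error (SE), which understates changes of genes at a few FPKM. The difference lay at or below -1 for 106 genes and at or above 1 for 20 genes, and the median over all tested genes was -0.01. Mzb1, among the lower genes named above, reached 1 FPKM only in TM3, TM5, TM6 and TM7 and so was tested through TM alone.

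As a second description that needs no model, genes were counted whose 4 HMLS values all lay on the same side of all 5 TM values. In 294 genes every HMLS library lay below every TM library (2.2% of those tested), and in 218 every HMLS library lay above (1.63%), together 512 genes (3.84%). A two-sided exact permutation test of 4 against 5 libraries cannot go below p = 0.00794, and exact p-values below are not adjusted over genes. Of the fits that left out a single library, only the fit without HMLS3 called any gene. There limma called C1qa lower (-1.88, adjusted p = 0.0153), Lyz2 lower (-1.53, adjusted p = 0.0341) and Scd1 higher (1.22, adjusted p = 0.0153) in HMLS. Without HMLS6, HMLS7 or HMLS8 the smallest limma adjusted p was 0.4777, 0.7177 and 0.7315, in that order. For the C1q genes, Lyz2, Mpeg1, Tyrobp and Csf1r, HMLS3 was the HMLS library nearest to the TM libraries.

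The libraries held 43906083 to 52197347 mapped reads in HMLS and 50735049 to 63470017 in TM, and 0 pairs of libraries held identical values. Of 9 measures per library none passed an adjusted p under 0.05 (exact permutation tests, smallest unadjusted p = 0.0238, all 9 adjusted p between 0.0816 and 0.230). HMLS means were below TM means for mapped reads (4.79e+07 against 5.56e+07), the share mapped (89.9% against 91.5%) and genes at 1 FPKM or more (12669 against 12872). The share of the 10 highest genes was larger in HMLS (17.2% against 15.2%). The unadjusted exact permutation p-values were, in that order, 0.0476, 0.0635, 0.0476 and 0.0397. The part of mapped reads in the gene differences was not tested. The smallest p belonged to a contrast of long against short genes, added after the values were seen. On the log2 scale it ran from 0.02 to 0.14 in HMLS and from -0.21 to 0.02 in TM without overlap. A contrast of low-GC against high-GC genes, also added then, averaged 0.15 in HMLS and -0.12 in TM (exact permutation p = 0.0635). It stood at -0.14, -0.0014, 0.31 and 0.42 in HMLS3, HMLS6, HMLS7 and HMLS8 and ran from -0.26 to -0.04 in TM. HMLS3 thus lay inside the TM range. The 294 lower genes had a median transcript length of 2694 bases and 53.7% GC, the 218 higher genes 4621 bases and 42.4% GC, and all tested genes 3307 bases and 49.8% GC. Differences refitted after each library was corrected for trends on GC content and length are given below for the C1q genes, Scd1, Sult1d1 and the genes of smallest p on the higher side.

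Tissue macrophage markers held the largest share of separated genes among the 43 gene lists examined. Of 16 tested members, 7 lay below every TM library in HMLS (43.8%, against 2.2% of all genes), 0 lay above, and 15 had a difference below 0, against 51.6% of all genes. Of these 7, Emr1, named after its values were seen, averaged 0.476 FPKM in HMLS and 1.25 in TM. It may have passed the filter through TM. The median difference of the list was -0.83, and 0 members passed the adjusted threshold. The lists were written with earlier results of these data known, so their counts describe these libraries. The exception was Ctss, cathepsin S, named after its value was seen, with a difference of 0.24. Summed over the list, HMLS held 236 to 317 FPKM and TM 320 to 402, without overlap.

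The 3 C1q genes lie side by side on chromosome 4 (C1qa at chr4:136895917-136898803, C1qb at chr4:136880129-136886187 and C1qc at chr4:136889804-136893065, GRCm38, all on the minus strand) and encode the chains of the protein that starts the classical complement pathway. C1qa stood at 19.5, 10.4, 5.20 and 5.93 FPKM in HMLS3, HMLS6, HMLS7 and HMLS8, and at 34.8, 26.6, 28.6, 26.2 and 24.5 in TM3, TM5, TM6, TM7 and TM8. The highest HMLS library, HMLS3, was still below the lowest TM library, and the TM mean was 2.74 times the HMLS mean. The fitted difference was -1.53 (SE 0.30, limma adjusted p = 0.278, exact permutation p = 0.00794). In the order of libraries used for C1qa, C1qb stood at 10.3, 5.56, 1.2 and 3.64 FPKM in HMLS and at 19.2, 14.4, 14, 14.3 and 12.7 in TM. C1qc stood at 10.3, 6.67, 3.14 and 3.90 in HMLS and at 29.4, 15.0, 21.2, 15.7 and 16.3 in TM. The HMLS and TM libraries did not overlap for either gene, and the differences were -1.59 (SE 0.36) for C1qb and -1.62 (SE 0.33) for C1qc. C1qb and C1qc were picked for display after their values were seen, because they complete the C1q trio. All 3 kept differences near these after the correction for GC content and length, at -1.34, -1.42 and -1.45.

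Because the macrophage members lay apart together, the 250 bases before the start of the members found in the RefSeq promoter table (GRCm38.p6, 10 of the 16) were searched on both strands for AGGAAGT, the core that ETS-family factors such as the macrophage factor PU.1 bind. The motif was chosen after the sequences were looked at. It occurred in 4 of the 10 (C1qb, C1qc, Lyz2 and Mrc1) and in 7.69% of all 32851 promoters of that length. The count is of members with the motif in any listed promoter, the share is over single promoters, and the rates are not like for like. The window of C1qb, chr4:136886201-136886450 on the minus strand, is shown because this gene had its motif nearest to the start, 53 bases before it, as the reverse complement ACTTCCT in capitals.
C1qb: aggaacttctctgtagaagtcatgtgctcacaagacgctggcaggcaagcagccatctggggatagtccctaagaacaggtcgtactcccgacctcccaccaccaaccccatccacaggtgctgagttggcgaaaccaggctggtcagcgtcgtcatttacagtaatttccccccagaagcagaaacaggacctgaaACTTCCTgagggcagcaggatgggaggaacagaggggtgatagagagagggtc
A match of letters is a description of the window and does not show that a factor binds there.

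Lyz2, lysozyme M of macrophages and neutrophils, stood at 54.5, 30.7, 21.1 and 29.6 FPKM in HMLS3, HMLS6, HMLS7 and HMLS8 and at 77.3, 88.1, 117, 62.4 and 63.3 in TM3, TM5, TM6, TM7 and TM8. The groups did not overlap, with a difference of -1.29 (SE 0.25, limma adjusted p = 0.278). Lyz1, the Paneth cell lysozyme of nearly the same sequence, had a difference of -0.96 (SE 0.25), and how the authors' counting divided reads between the pair is not known. Mpeg1, the pore-forming perforin-2 of phagocytes, stood at 5.09, 2.77, 2.40 and 2.24 FPKM in HMLS and 10.9, 6.61, 13.1, 6.59 and 8.43 in TM, with no overlap (-1.30, SE 0.26). Tyrobp, the signalling adaptor DAP12, ran from 3.10 to 5.51 in HMLS and from 6.24 to 17.6 in TM, again apart.

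Csf1r, the receptor for the growth factor on which macrophages depend, overlapped by 1 library: it stood at 5.79, 3.73, 2.43 and 2.71 FPKM in HMLS and at 8.48, 7.57, 10.8, 9.01 and 5.56 in TM, with a difference of -1.02 (SE 0.28). Cd14, a sensor of bacterial lipopolysaccharide, stood at 16.2, 16.7, 16.6 and 18.6 in HMLS and at 39.0, 34.6, 27.8, 31.9 and 21.6 in TM, with no overlap and a difference of -0.80 (SE 0.28). Its HMLS libraries were nearly level and close to CON (11.9 to 17.9). Tyrobp, Csf1r and Cd14 were also picked after their values were seen. In the C1q genes, Lyz2, Mpeg1, Tyrobp and Csf1r the library HMLS3 lay highest among the HMLS libraries, and HMLS7 or HMLS8 lowest.

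**Figure D1:**
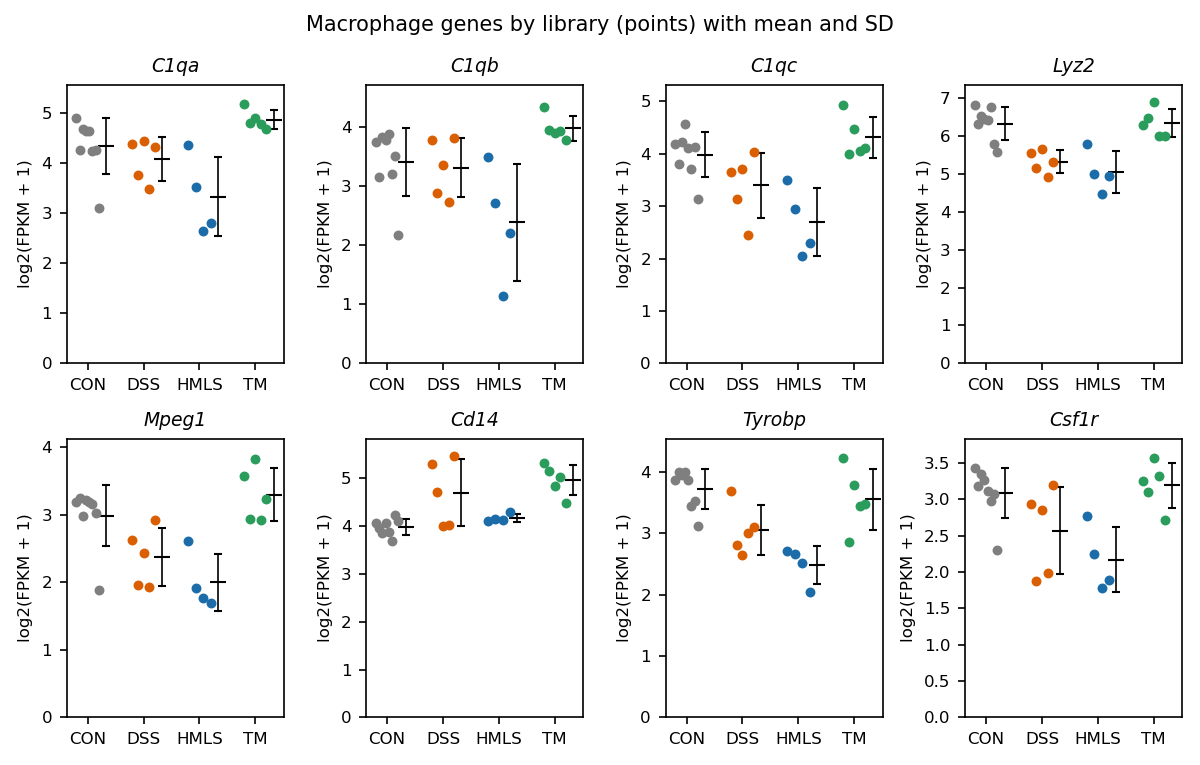
Level of 8 macrophage genes in each library (points, log2(FPKM + 1)) in CON, DSS, HMLS and TM, with the group mean and SD as a bar beside the points. For C1qa, C1qb, C1qc, Lyz2, Mpeg1, Tyrobp and Cd14 every HMLS point lies below every TM point, while for Csf1r HMLS3 reaches into the TM range.

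MHC class II presentation had the lowest median of the lists with at least 5 tested genes, -1.07 over 10 genes. In it 4 were separated below TM (40%, against 2.2% of all genes), 0 above, and 9 differences lay below 0. Of these 4, H2-DMb1 and H2-Ob had HMLS means under 1 FPKM (0.693 and 0.477, against 3.02 and 1.62 in TM). They may have passed the filter through TM, so the 40% is no independent support. H2-Ob was named after its values were seen. The class II pathway loads peptides onto class II dimers for CD4 T cells in macrophages, dendritic cells and B cells. H2-DMb2, a chain of the peptide-loading chaperone, stood at 3.31, 3.03, 0.712 and 1.73 FPKM in HMLS3, HMLS6, HMLS7 and HMLS8 and at 5.36, 5.60, 11.8, 4.94 and 8.93 in TM3, TM5, TM6, TM7 and TM8, with a difference of -1.41 (SE 0.31) and no overlap. H2-Eb1, a class II beta chain, stood at 9.96, 8.13, 4.06 and 5.80 in HMLS and at 17.1, 14.1, 25.8, 8.20 and 35.4 in TM (-1.31, SE 0.33). Only HMLS3 exceeded TM7 there. H2-Ab1 ran from 5.37 to 15.2 in HMLS and from 15.9 to 55.3 in TM, apart by a narrow gap. H2-Aa, its alpha chain partner, ran from 10.6 to 21.3 and from 20.5 to 90.6, overlapping by 1 library. Ciita, the coactivator that switches the class II genes on, ran from 0.519 to 1.32 in HMLS and from 1.21 to 8.13 in TM, with a difference of -0.95 (SE 0.34). Cd74, the invariant chain, overlapped more: HMLS6 at 97.6 lay above TM3, TM5 and TM7. TM8 was the highest TM library for H2-Eb1, H2-Ab1, H2-Aa, Ciita and Cd74. H2-Ab1, H2-Aa, Ciita and Cd74 were picked after their values were seen, and H2-DMb1 and H2-DMb2 are near-identical copies whose reads the counting may have divided.

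Class II promoters carry an inverted CCAAT box as part of a conserved regulatory module, so the same 250-base windows were searched on both strands for GATTGG (reverse complement CCAATC), again chosen after the sequences were looked at. It was present in 6 of the 7 members found in the table and in 14.6% of all 32851 promoters. A member counted if any of its listed promoters held the motif, while the share is over single promoters, so these rates are not like for like. The windows of an alpha chain of 1 class II molecule and a beta chain of another are shown, H2-Aa at chr17:34287824-34288073 on the minus strand and H2-Eb1 at chr17:34305617-34305866 on the plus strand (GRCm38.p6, RefSeq), with the motif in capitals 49 and 60 bases before the start. H2-Eb1 has another copy on the opposite strand 35 bases before the start.
H2-Aa: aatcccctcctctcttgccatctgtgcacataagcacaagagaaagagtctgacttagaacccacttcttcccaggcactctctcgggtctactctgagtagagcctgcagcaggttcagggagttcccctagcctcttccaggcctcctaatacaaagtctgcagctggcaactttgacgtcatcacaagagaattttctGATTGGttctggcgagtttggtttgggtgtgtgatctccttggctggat
H2-Eb1: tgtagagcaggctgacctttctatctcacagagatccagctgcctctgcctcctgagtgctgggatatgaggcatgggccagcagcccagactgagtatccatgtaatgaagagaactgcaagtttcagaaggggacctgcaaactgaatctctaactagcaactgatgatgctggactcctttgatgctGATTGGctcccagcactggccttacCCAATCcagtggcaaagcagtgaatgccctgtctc
Whether the motif is used in these samples was not measured.

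B cell and follicle markers had a difference below 0 in 10 of 10 tested members, with a median of -0.80. Only 1 member was separated (Ms4a1, 10%, against 2.2% of all genes). The 8 members at an unadjusted p under 0.05 were all lower in HMLS, against 4.48% of all genes. Ms4a1, the B cell surface protein CD20, stood at 0.802, 0.940, 0.178 and 0.208 FPKM in HMLS3, HMLS6, HMLS7 and HMLS8 and at 1.76, 2.2, 5.14, 1.03 and 1.17 in TM3, TM5, TM6, TM7 and TM8. The difference was -1.002 (SE 0.34), and these are low levels near the filter. Ms4a1 reached 1 FPKM in the TM libraries, DSS1 and DSS2 and in no HMLS library, so it passed the filter through TM. Ltb, the lymphotoxin chain that builds follicles, ran from 1.44 to 3.14 in HMLS and from 2.34 to 7.57 in TM.

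Plasma cell and IgA markers split. Of 10 tested, 3 were separated below TM (Mzb1, Pou2af1 and Txndc5, 30%, against 2.2% of all genes) and 9 had a difference below 0. The median was -0.38, between -0.47 and -0.18 when single libraries were left out. Mzb1, which helps plasma cells assemble antibody, was listed at 0.163, 0.388, 0 and 0 FPKM in HMLS3, HMLS6, HMLS7 and HMLS8, and stood at 2.58, 2.53, 4.83, 1.44 and 0.581 in TM3, TM5, TM6, TM7 and TM8. All TM libraries lay above all HMLS libraries (-1.46, SE 0.29, limma adjusted p = 0.278). Of the 14 libraries in the fit, only TM3, TM5, TM6 and TM7 reached 1 FPKM. Mzb1 was therefore tested only because of its TM values, and its separation is no independent support. Pou2af1, a B cell coactivator, stood at 1.51, 1.10, 0.402 and 1.27 in HMLS and 4.95, 5.05, 10.1, 3.66 and 2.72 in TM (-1.54, SE 0.32), also apart. Igj, the chain that joins IgA into dimers, spread widely in TM, at 73.7 and 73.1 in TM3 and TM6 and at 10.3 to 13.4 in the others, against 3.22 to 10.4 in HMLS. Pigr, the epithelial receptor that carries IgA into the lumen, had a difference of only -0.20 (SE 0.19), and Xbp1, used by goblet as well as plasma cells, -0.17. Igj, Pigr, Txndc5 and Xbp1 were picked after their values were seen.

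T cell markers lay closer together. Of 12 tested, 0 were separated and 11 had a difference below 0, with a median of -0.28, which was -0.09 without HMLS8 and -0.15 after the correction for GC content and length. Cd4 ran from 0.147 to 1.06 FPKM in HMLS and from 0.769 to 3.77 in TM. Itgae, the integrin of intraepithelial lymphocytes, ran from 0.858 to 1.41 and from 1.17 to 3.27. Interferon-induced genes also had 0 of 20 separated, with 19 differences below 0 and a median of -0.35, which was 0.24 without TM8. TM8 alone was high for Usp18 (11.5 FPKM, against 0.574 to 1.29 in the other TM libraries).

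**Figure D2:**
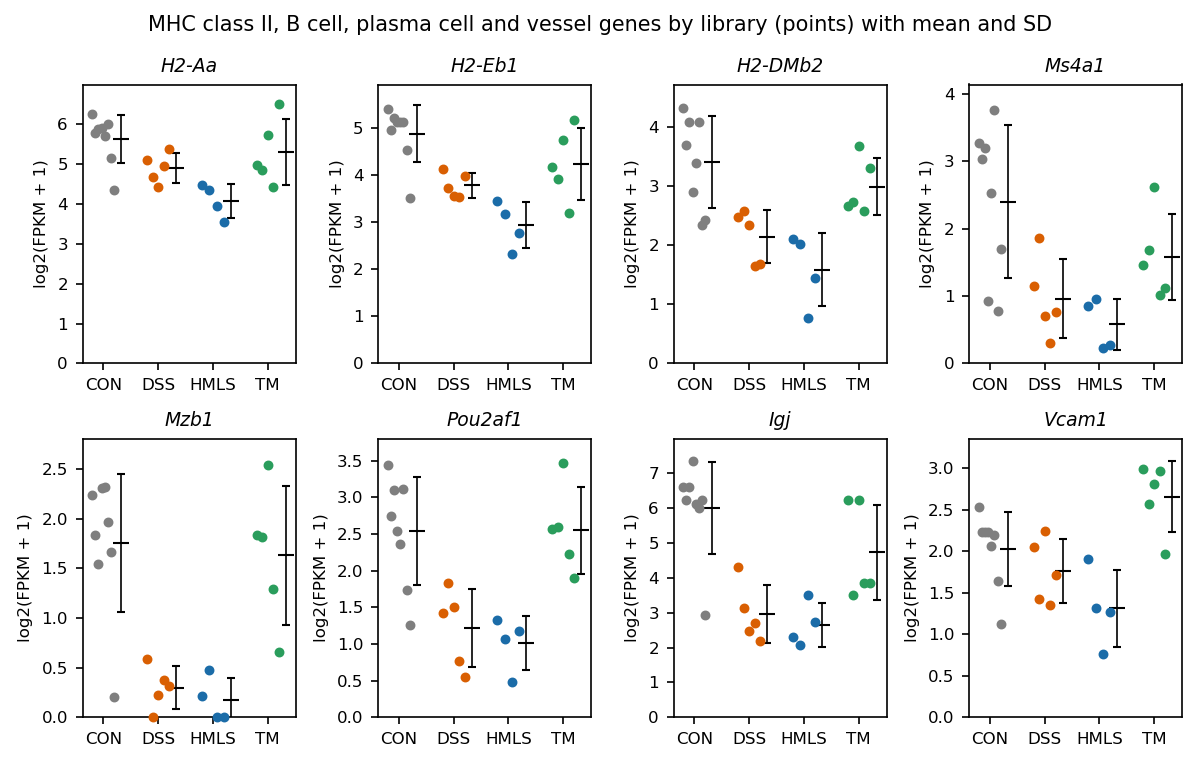
Level of MHC class II, B cell, plasma cell and vessel genes in each library (points, log2(FPKM + 1)) by group, with mean and SD beside them. The HMLS and TM points do not overlap for H2-DMb2, Ms4a1, Mzb1, Pou2af1 and Vcam1, and TM8 is the highest TM point for H2-Aa and H2-Eb1.

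The antimicrobial list held 3 separated members of 21 (14.3%, against 2.2% of all genes), all lower in HMLS: Nos2, Duox2 and Lyz1. The median difference was -0.72, and it was -0.34 without HMLS3, -0.45 without TM3 and -0.47 without HMLS7. Nos2, the inducible enzyme that makes nitric oxide, stood at 0.911, 1.85, 1.25 and 0.891 FPKM in HMLS3, HMLS6, HMLS7 and HMLS8 and at 8.58, 28.2, 5.99, 3.88 and 7.09 in TM3, TM5, TM6, TM7 and TM8. The highest HMLS library, HMLS6, lay below the lowest TM library, TM7, and CON, without DSS, ran from 0.263 to 1.62. The difference of -2.11 (SE 0.57) had a limma adjusted p of 0.407, and TM5 stood far above the other TM libraries. Duox2, the epithelial hydrogen peroxide generator, stood at 30.0, 40.1, 21.2 and 41.9 in HMLS and 82.0, 141, 65.7, 87.2 and 55.1 in TM (-1.32, SE 0.41); it was picked after its values were seen. Lyz1 ran from 3.57 to 7.70 in HMLS and from 7.75 to 16.0 in TM, a gap narrower than the spread within either group.

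The lectins that DSS is best known to induce overlapped. Reg3b, an antibacterial lectin of the epithelium, ran from 4362 to 14454 FPKM in HMLS and from 5085 to 13843 in TM, against 423 to 1764 in CON. Reg3g ran from 272 to 2478 and from 771 to 2631. The Reg3b range of both waters lay above CON, and the differences between them were -0.40 (SE 0.41) and -0.72 (SE 0.67). Lcn2, the iron-trapping lipocalin, stood at 13, 7.31, 0.180 and 5.13 FPKM in HMLS and at 31.1, 48.4, 8.58, 17.9 and 8.65 in TM, with HMLS3 above TM6 and TM8 and the difference at -1.85 (SE 1.07).

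Among acute inflammation genes 2 of 14 were separated (14.3%, against 2.2% of all genes), the chemokines Cxcl1 and Ccl2. Ccl2 was named after its values were seen. Its mean was 0.13 FPKM in HMLS and 1.91 in TM, so no HMLS library reached the 1 FPKM of the filter. As Cxcl1 also needed its TM libraries to pass, the 14.3% is no independent support. In the list 13 had a difference below 0, with a median of -0.44, or -0.11 without TM3 and -0.24 without HMLS7. Cxcl1, which draws neutrophils, stood at 1.19, 0.431, 0.873 and 0.487 FPKM in HMLS and at 10.8, 1.85, 2.83, 2.55 and 2.13 in TM. The difference was -1.32 (SE 0.49), and TM3 alone reached far above the other TM libraries. Outside TM, Cxcl1 reached 1 FPKM only in HMLS3, DSS5 and DSS7, short of the 4 libraries the filter needs. Tnf stood at 3.11, 2.63, 1.85 and 3.93 in HMLS and at 4.74, 10.3, 5.22, 3.56 and 5.09 in TM (-0.76, SE 0.26), with HMLS8 above TM7. The remaining cytokines of the colitis panel had wide, overlapping ranges. Il1b ran from 0.439 to 2.90 in HMLS and from 0.257 to 9.77 in TM. Ptgs2, cyclooxygenase 2, ran from 0.874 to 2.32 and from 0.568 to 6.82. Il11 did not reach the filter; TM3 (2.06 FPKM) was its highest library of the 9.

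Neutrophil markers gave 7 differences below 0 of 7 tested, a median of -0.60 and 0 separated genes. The median was -0.11 without HMLS7 and -0.24 without TM3. S100a8, a subunit of the neutrophil protein calprotectin, ran from 1.34 to 8.33 FPKM in HMLS and from 0.944 to 45.6 in TM. S100a9, its partner, was listed at 0 in HMLS7 and stood at 41.3 in TM3. Both genes were highest in TM3, and otherwise the groups shared a range.

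In the epithelium, goblet cell genes had a difference below 0 in 19 of 20 members, a median of -0.58 and 2 separated members (10%, against 2.2% of all genes), the transcription factors Spdef and Atoh1. The median was -0.34 without HMLS6. Spdef, which drives goblet cell maturation, stood at 26.1, 35.1, 40.9 and 38.4 FPKM in HMLS3, HMLS6, HMLS7 and HMLS8 and at 82.0, 133, 66.8, 61.6 and 66.2 in TM3, TM5, TM6, TM7 and TM8. The highest HMLS library lay well below the lowest TM library, and the difference was -1.16 (SE 0.27, limma adjusted p = 0.341). Atoh1, named after its values were seen, commits cells to the secretory lineage and had means of 22.9 and 42.7 FPKM (-0.99). Their products overlapped. Muc2, the main mucin, stood at 3935, 1140, 2717 and 2829 in HMLS and at 2249, 5345, 3063, 4882 and 5290 in TM (-0.70, SE 0.40). Tff3, the trefoil peptide, had a difference of -0.37 (SE 0.28), or -0.20 after the correction for GC content and length. Agr2, the mucin-folding enzyme, picked after its values were seen, ran from 178 to 509 and from 445 to 1128.

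The enzymes that put sugars on mucins and glycolipids had 2 of 22 separated (9.09%, against 2.2% of all genes), B3gnt7 and B3gnt3, and a median of -0.29, or -0.13 without HMLS6. B3gnt7, which extends keratan-type chains, stood at 9.09, 3.55, 2.40 and 9.54 FPKM in HMLS and at 16.8, 21.6, 11.2, 10.6 and 17.7 in TM (-1.33, SE 0.41). Fut2, which adds the fucose that gut bacteria feed on, stood at 38.8, 52.2, 40.2 and 74.9 in HMLS and at 195, 62.5, 117, 123 and 100 in TM. HMLS8 lay above TM5, and the difference was -1.15 (SE 0.42). B3gnt3 was named after its values were seen.

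Among tight junction genes 1 of 23 was separated (4.35%, near the 2.2% of all genes): Cldn2, the claudin that forms a cation and water channel between cells. It stood at 24.8, 15.7, 19.9 and 36.4 FPKM in HMLS and at 68.6, 52.9, 38.4, 46.8 and 66.3 in TM, with no overlap and a difference of -1.18 (SE 0.30, limma adjusted p = 0.407). In that list 16 of 23 differences were above 0, with a median of 0.14. Cldn4 and Cldn8, both barrier claudins of the distal colon, had differences of 0.17 (SE 0.28) and -0.03 (SE 0.38), each changing sign when single libraries were left out. After the correction for GC content and length Cldn4 was at 0.32 and Cldn8 at -0.15.

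Renewal genes showed small differences. DNA replication and mitosis genes had 0 of 26 separated with 25 differences below 0 and a median of -0.41, or -0.12 without TM3. Stem cell genes had 7 of 12 below 0 and a median of -0.14, with Sox9 at 6.01 to 12.1 FPKM in HMLS and 11.5 to 17.7 in TM. Lgr5, the receptor that marks crypt stem cells, did not reach the filter: it ran from 0.118 to 0.456 in HMLS, from 0.0269 to 0.317 in TM and from 1.42 to 2.96 in CON. Of 18 fetal-like repair genes, 16 lay below 0; Clu ran from 6.19 to 30.8 in HMLS and from 20.2 to 50.1 in TM.

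**Figure D3:**
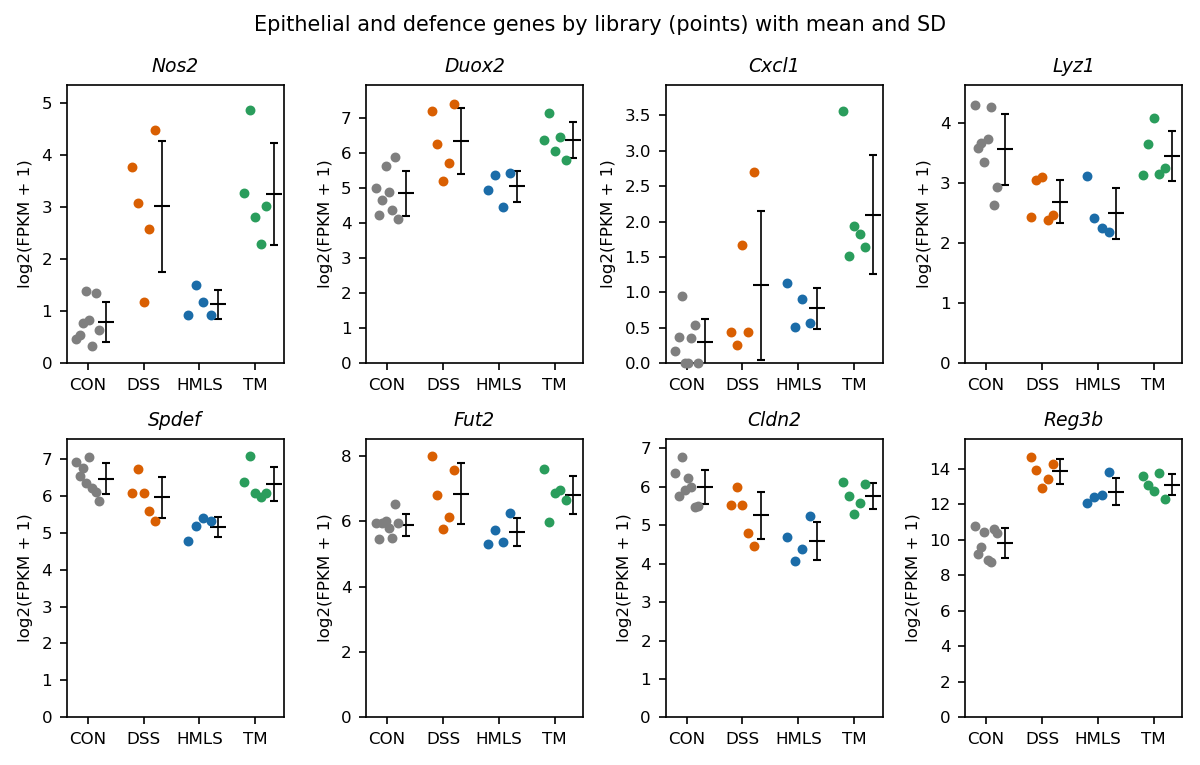
Level of epithelial and defence genes in each library (points, log2(FPKM + 1)) by group, with mean and SD beside them. HMLS points lie below all TM points for Nos2, Duox2, Cxcl1, Lyz1, Spdef and Cldn2, and Reg3b overlaps between HMLS and TM while both lie above CON.

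In the stroma and vessels, Vcam1 and Ets1 were among the 5 genes with the smallest p on the lower side, with Lyz2, Mzb1 and Mpeg1. Vcam1, the endothelial and stromal molecule on which leukocytes arrest, stood at 2.75, 1.49, 0.700 and 1.41 FPKM in HMLS and at 6.93, 4.91, 5.99, 6.81 and 2.89 in TM (-1.34, SE 0.27, limma adjusted p = 0.278). HMLS3 came within a small step of TM8, and the others lay far apart. Ets1, a transcription factor of lymphocytes and endothelium, stood at 4.22, 4.31, 4.51 and 3.65 in HMLS and at 9.58, 7.59, 10.4, 7.65 and 6.76 in TM (-0.85, SE 0.15). Its HMLS libraries were nearly level, and it had the smallest unadjusted p of the comparison, 6.54e-05.

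Fibroblast and matrix genes had 22 of 24 differences below 0 and a median of -0.59 (-0.36 without TM3). The list held 1 separated member, Col1a2 (4.17%, near the 2.2% of all genes). Col1a2, a chain of type I collagen picked after its values were seen, stood at 18.0, 18.4, 19.1 and 13.2 FPKM in HMLS and at 93.8, 23.1, 33.4, 20.8 and 20.9 in TM, where TM3 stood alone and the others lay just above HMLS. Of 16 matrix proteases and inhibitors, all had a difference below 0, with a median of -0.53 and 1 separated gene (6.25%, against 2.2% of all genes). That gene, Adamts4, an enzyme that cleaves proteoglycans, stood at 1.98, 3.04, 0.412 and 2.16 in HMLS and at 14.9, 6.58, 4.99, 6.73 and 5.70 in TM (-1.60, SE 0.48). Mmp3 and Mmp10, stromal and epithelial proteases of ulcers, overlapped, at 0.328 to 2.11 and 1.26 to 7.17 for Mmp3 and at 0.0788 to 0.673 and 0 to 5.89 for Mmp10. Among endothelial markers 15 of 17 were below 0 with a median of -0.36 and 0 separated. Edn1, the vasoconstrictor endothelin 1, went against that list at 29.7 to 35.8 FPKM in HMLS and 11.3 to 31.4 in TM (0.66, SE 0.26).

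On the higher side Scd1, the desaturase that makes monounsaturated fatty acids, at chr19:44394455-44407879 (GRCm38, minus strand), stood at 8.19, 21.6, 15.3 and 14.2 FPKM in HMLS3, HMLS6, HMLS7 and HMLS8 and at 6.53, 6.46, 6.81, 5.76 and 7.69 in TM3, TM5, TM6, TM7 and TM8. HMLS3 lay just above the highest TM library and the other HMLS libraries well above it, with the HMLS mean 2.23 times the TM mean and a difference of 0.98 (SE 0.20, limma adjusted p = 0.278, exact permutation p = 0.00794). CON ran from 13.2 to 178, with a median of 46.6, so the level in TM and in DSS (5.60 to 7.88) lay below CON. HMLS3 lay below the CON range as well, and HMLS6, HMLS7 and HMLS8 lay inside it but below its median. In the fatty acid and triglyceride synthesis list, 2 of 18 were separated above TM (11.1%, against 1.63% of all genes), Scd1 and Gpam, the first enzyme of triglyceride assembly, and the list's median was 0.04.

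White adipocyte markers had the highest list median, 0.83 over 13 tested genes, with 11 above 0 and 0 separated. At an unadjusted p under 0.05, 6 were higher in HMLS, against 4.96% of all genes, and 0 lower. Adipoq, the fat hormone adiponectin, stood at 3.14, 29.8, 10.2 and 1.35 FPKM in HMLS and at 1.92, 0.295, 0.903, 0.647 and 3.46 in TM. Retn, resistin, stood at 2.28, 11.9, 7.81 and 4.27 in HMLS and at 1.60, 0, 0.391, 1.95 and 2.66 in TM. HMLS6 and HMLS7 carried the high values, and the summed list ran from 245 to 791 in HMLS and from 211 to 391 in TM. Without HMLS6 the list median was 0.33. Fat expresses Scd1 as well, and Scd1 was also highest in HMLS6. The part of adipocyte RNA in the Scd1 values was not tested. Adipoq was picked after its values were seen.

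Of the enzymes that process drugs, steroids and dietary toxins, 22 of 27 had a difference above 0, with a median of 0.52, or 0.27 without TM3. Sult1d1 alone was separated (3.7%, near the 1.63% of all genes). Cyp2e1, which oxidizes ethanol and small solvents, stood at 10.8, 91.4, 40.7 and 7.01 FPKM in HMLS and at 3.52, 0.646, 2.3, 2.98 and 15.3 in TM (2.49, SE 0.71). Adipose tissue also expresses Cyp2e1, and its high libraries, HMLS6 and HMLS7, were those of Adipoq. Abcb1a, the efflux pump P-glycoprotein of colonocytes, stood at 506, 533, 621 and 506 in HMLS and at 139, 352, 265, 246 and 506 in TM (0.96, SE 0.31), where TM8 alone matched HMLS. Sult1d1, a sulfotransferase picked after its values were seen, ran from 467 to 809 and from 147 to 442; its difference was 0.94, and 0.62 after the correction for GC content and length.

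Absorptive colonocyte genes had 17 of 22 differences above 0, a median of 0.17 (0.07 without HMLS7, 0.36 without HMLS3) and 0 separated. Car1, the abundant carbonic anhydrase of the colon surface, stood at 3972, 6987, 5695 and 5020 FPKM in HMLS and at 4270, 2452, 3204, 1973 and 3326 in TM (0.85, SE 0.30), with TM3 above HMLS3. Slc26a3, the chloride exchanger, stood at 65.9, 497, 165 and 91.7 in HMLS and ran from 58.4 to 165 in TM, so a single library, HMLS6, set its mean. Aqp8, a water channel, was likewise at 469 in HMLS6 and at 10.4 to 75.7 in the other HMLS libraries. Car4, another carbonic anhydrase, had a difference of 0.06 (SE 0.55), and TM3 (24.1 FPKM) lay far below the rest.

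Genes of magnesium and calcium handling were listed because deep sea waters differ from fresh water in these ions. Of 21 tested, 14 were above 0 with a median of 0.16 (0.27 without HMLS3) and 0 were separated. At an unadjusted p under 0.05 there were 3, all higher in HMLS, against 4.96% of all genes. Atp2b1, a plasma membrane calcium pump, stood at 114, 171, 177 and 148 FPKM in HMLS and at 60.6, 96.5, 61.0, 63.2 and 123 in TM (0.95, SE 0.25), with TM8 above HMLS3. Nipa2, a magnesium transporter, stood at 34.1, 47.4, 58.3 and 61.3 in HMLS and at 34.4, 33, 33, 34.9 and 32.2 in TM (0.54, SE 0.14). HMLS3 sat inside the narrow TM range, and the other HMLS libraries above it. Trpm6, the apical magnesium channel of the colon, ran from 10.6 to 43.2 and from 8.63 to 24.7, with a difference of 0.37 (SE 0.34). Among metal genes the zinc exporter Slc30a1 stood at 23.8, 29.5, 21.2 and 40.6 in HMLS and at 10.3, 15.8, 16.6, 14.5 and 26.7 in TM (0.77, SE 0.24), while the list of metallothioneins and metal transporters had a median of 0.04.

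The remaining genes with the smallest p on the higher side were Wwp1, a ubiquitin ligase, Acvr2a, an activin receptor, the zinc finger gene Zfp942 and the olfactory receptor Olfr613. Wwp1 stood at 20.7, 24.0, 25.5 and 26.4 FPKM in HMLS and at 17.4, 16.5, 19.2, 15.9 and 16.9 in TM, a small separation of 0.47 (SE 0.11) that was 0.27 after the correction for GC content and length. Acvr2a ran from 18.8 to 29.7 and from 15.3 to 17.7, with 0.53 (SE 0.13) before and 0.35 after the correction. Zfp942 gave 0.65 before and 0.44 after, and Olfr613 0.62 and 0.34. After the same correction Scd1 was at 0.96. The part of GC content and length in the differences of these 4 genes, of the C1q genes and of Scd1 was not tested. Other separated list genes were Cox8b, a muscle and fat form of a respiratory subunit, at 2.62 to 5.93 in HMLS and 0.915 to 2.18 in TM, and Dnajb9, a chaperone of the endoplasmic reticulum, at 43.2 to 70.7 and 29.1 to 42.6.

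**Figure D4:**
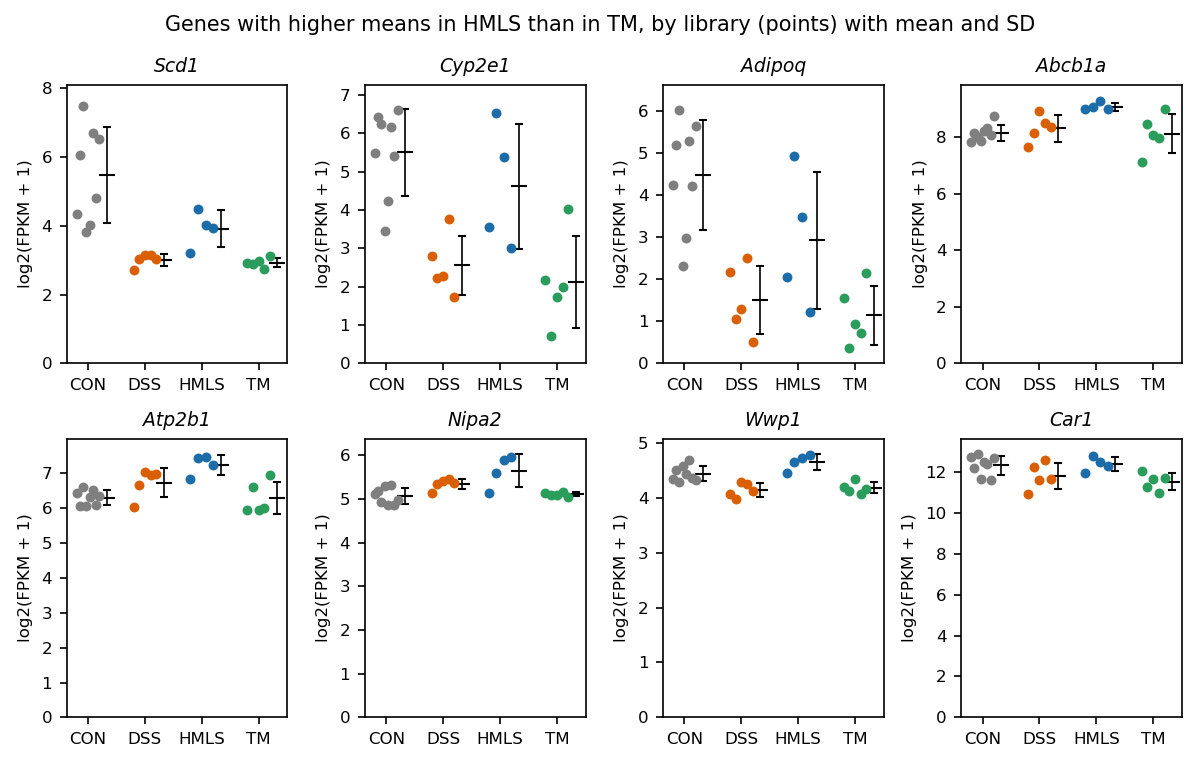
Level of genes with higher means in HMLS in each library (points, log2(FPKM + 1)) by group, with mean and SD beside them. HMLS points lie above all TM points for Scd1 and Wwp1 and overlap with TM for Cyp2e1, Adipoq, Abcb1a, Atp2b1, Nipa2 and Car1, and HMLS6 is the highest HMLS point for Scd1, Cyp2e1 and Adipoq.

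Markers of tissue that a colon sample may include showed how the pieces compared. Smooth muscle genes had 18 of 19 differences above 0, a median of 0.34 and summed levels of 2246 to 3932 FPKM in HMLS against 1605 to 3084 in TM; the median was 0.17 without HMLS3. Squamous anal markers were close to absent, summing to 1.42 to 5.26 in HMLS and 1.43 to 3.86 in TM. Red cell genes were high in single TM libraries, with Hbb-b1 at 207 FPKM in TM7 and 82.5 in TM3 against 3.08 to 15.5 in HMLS. The part of these tissues in the lower immune and higher fat genes was not tested. Clock genes, which cycle with the time of day, had 14 of 18 differences above 0 and a median of 0.37, between 0.19 and 0.53 when single libraries were left out.

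**Figure D5:**
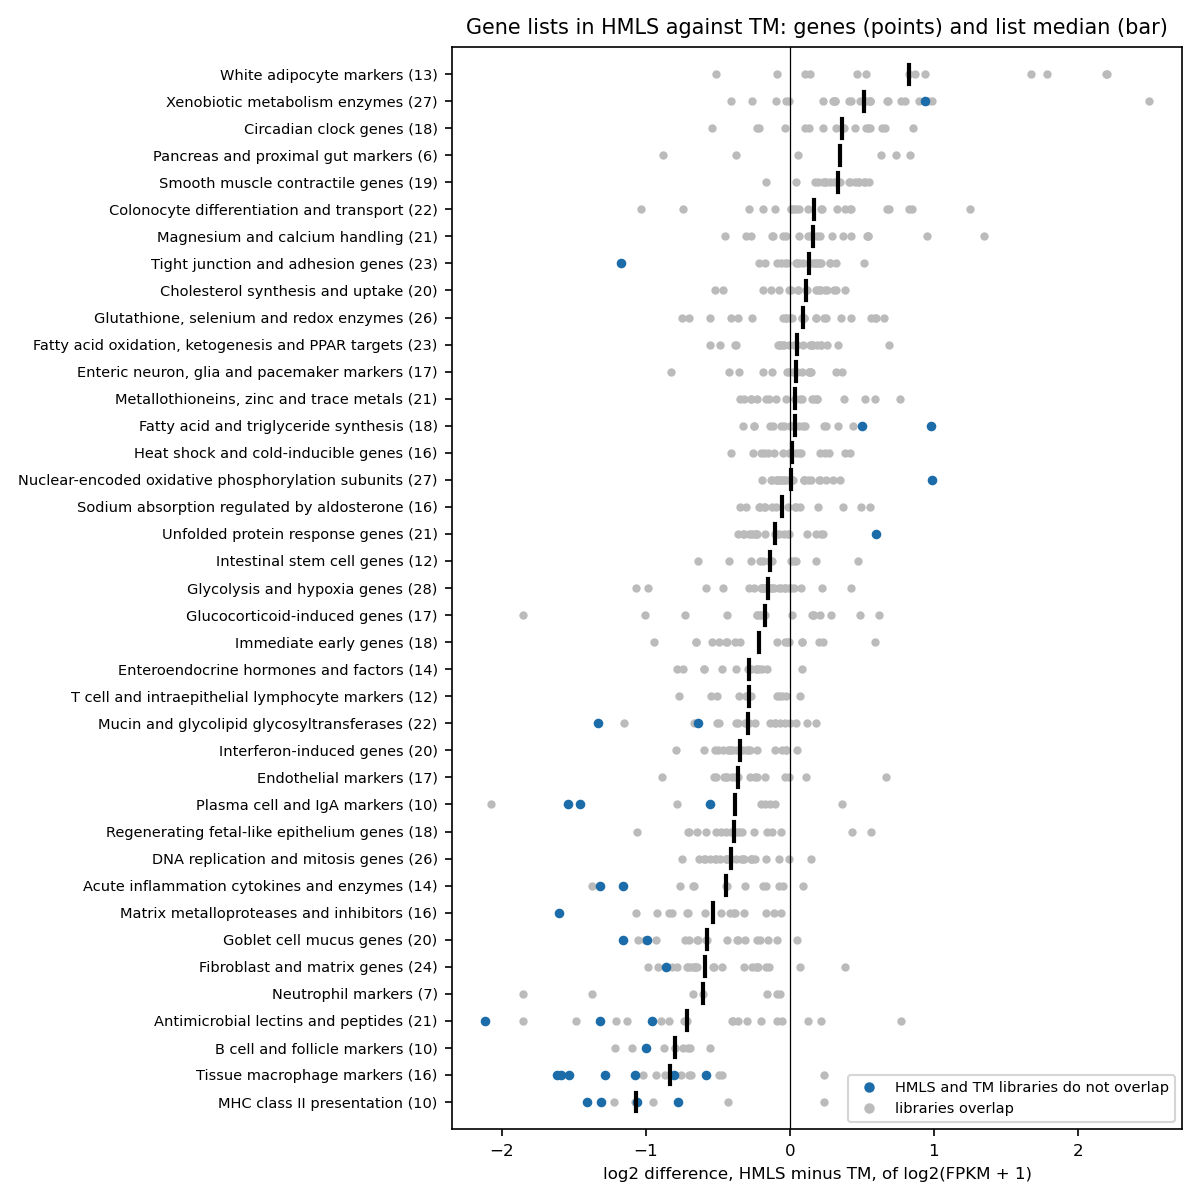
Difference between HMLS and TM (log2(FPKM + 1)) of each tested gene (points) in lists of at least 5 tested genes, with the list median as a bar and the number of genes in brackets. Genes whose HMLS and TM libraries do not overlap are coloured: the macrophage and MHC class II lists hold 7 and 4 of them, all on the lower side, and medians run from -1.07 to 0.83.

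The DSS and CON groups place these differences. HMLS and TM are both set against the same 5 DSS libraries here, so the values are given side by side and no relation between them is drawn. Against DSS, limma called 0 genes in either water at an adjusted p under 0.05 (740 at an unadjusted p under 0.05 for HMLS and 367 for TM). For C1qa the difference from DSS was -0.75 in HMLS and 0.78 in TM, for Lyz2 -0.27 and 1.01, for Mzb1 -0.13 and 1.33, and for Vcam1 -0.45 and 0.90. The mean of Mzb1 in DSS (0.242 FPKM) was near that of HMLS (0.138) and below that of TM (2.39), and that of Lyz2 (39.5) near HMLS (34.0). For Nos2 the difference from DSS was -1.88 (SE 0.57) in HMLS and 0.24 (SE 0.54) in TM, and for Duox2 -1.30 (SE 0.41) and 0.02 (SE 0.38). Spdef gave -0.79 and 0.37, Cldn2 -0.67 and 0.51, and Scd1 0.90 and -0.09. By group means, Duox2, Nos2 and Scd1 in TM sat near DSS, and C1qa and Cldn2 had DSS between the waters. The library DSS5 lay inside the HMLS range for Nos2 (1.26 FPKM) and for Duox2 (35.5 FPKM).

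Among the 294 genes separated on the lower side, the CON mean lay nearer to TM than to HMLS in 239 (81.3%) and the DSS mean nearer to TM in 179 (60.9%). Among the 218 on the higher side, CON lay nearer to TM in 184 (84.4%) and DSS in 164 (75.2%). Over all tested genes CON lay nearer to TM in 62.4% and DSS in 60.9%. The genes were chosen on the HMLS and TM libraries, so these shares describe where those genes fall and carry no test.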

How the data were processed

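Colon RNA of 22 mouse libraries was sequenced from a TruSeq stranded total RNA kit, per the labels' protocols. The authors deposited 1 expression table of 23997 genes, read here as FPKM because the submitters' processing notes name Cufflinks 2.2.0 with TopHat2 2.0.13, Bowtie, bcl2fastq 2.20 and the build mm10, with no settings; the table names no unit. The deposited read statistics gave total and mapped reads and the percent mapped. FPKM values are not counts, so no count model was used.

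Groups came from the labels. Values were taken as log2(FPKM + 1), and limma 3.58.1 in R 4.3.3 (trend and robust) was fitted on the 14 libraries given DSS for the contrast HMLS minus TM, over 13341 genes with at least 1 FPKM in at least 4 of them; p-values were adjusted by Benjamini-Hochberg over all of these at a threshold of 0.05. Single genes and library measures also had two-sided exact permutation tests. Genes were named by rule: on each side the 5 genes of lowest p, in each list up to 2 members of lowest p, and a panel of colitis genes; the first set omitted predicted genes, small RNAs, pseudogenes, names like dates and segments of antigen receptors. Genes named outside these rules are marked as picked after their values were seen. Fabp4, H2-DMb1 and Mrc1 also lie outside the rules and carry no mark where they are named. The comparison and the 43 gene lists (831 genes, 686 tested) were chosen with earlier results of these data known. Positions are from GENCODE M21 (GRCm38). The code was tested on simulated data. Alternatives were the pseudocount, the filter, the libraries in the fit, scaling, the variance model, a replicate block, the percent mapped as covariate, a fold above 1.2, leaving out each library and, added after seeing the data, a block fit of the 9 libraries and a correction for GC content and length. Genes in nearly identical copies may have had reads divided between them.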

Additional observations from a re-analysis of the deposited data

Results flagged for a closer look

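In 272 groups of 4 HMLS or 5 TM values, over 127 genes and 9 library measures, 16 had a library far from the rest of its group. Chance flags about 1 in 20 groups, close to the share seen here. TM3 accounted for 6 of the 16. It was high for Cxcl1 (10.8 FPKM, next 2.83), for the basement membrane collagen Col4a1 (102, next 56.2), for the proteases Adamts4 (14.9, next 6.73) and Mmp2 (39.4, next 19.2) and for the replication factor Mcm3 (6.73, next 2.93), and low for Car4 (24.1, next 148). Among the other TM libraries, TM8 was high for the interferon-induced gene Usp18 (11.5, next 1.29) and TM7 for Bcas1 (37.8, next 31.0).

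HMLS3 was high for the synaptic gene Snap25 (14.6, next 8.62) and low for the junction gene F11r (113, next 131). HMLS6 was high for Gpam (24.6, next 16.7) and low for the receptor Kit (15.1, next 32.3). HMLS7 was high for Cxcl10 (1.16, next 0.134). HMLS8 was high for Sult1d1 (809, next 502) and low for Tff3 (850, next 1164) and Col1a2 (13.2, next 18.0). Each of these libraries stood apart within its own group only, and the cause was not tested.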

How the results depend on the processing

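The count of 0 genes at an adjusted p under 0.05 held in each direction except without HMLS replicate 3 (1 higher, 2 lower; leave-one-out range 0 to 1 higher and 0 to 2 lower) and in a replicate block fit of only the 9 libraries (1 lower, Akr1b3, -2.77, adjusted p = 0.0200, named after its value was seen). The count at an unadjusted p under 0.05 was 1260, and 231 with a fold above 1.2 required. It was 692 to 1735 in the leave-one-out fits, lowest without HMLS replicate 8. After the correction for GC content and length it was 880 of 13216 tested genes. With percent mapped as a covariate it was 1007, and the smallest limma adjusted p was 0.562. The replicate block with all 14 libraries gave 0 calls and 1650 genes at an unadjusted p under 0.05. The replicate numbers did not pair the libraries: the 4 same-numbered pairs had correlations of -0.22, 0.06, -0.10 and 0.02, and 0 correlated best with its own number.

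Of 3586 values of named genes under 29 alternatives 3556 kept sign and side of the threshold, 3 gained a call and 27 changed sign, in 8 genes with overlapping groups and differences within -0.28 to 0.46. Kit was 0.088 in the replicate block, 0.069 in the replicate block of only 9 libraries and 0.11 with percent mapped as a covariate. Car4 was -0.0040 after quantile normalization, -0.28 with sample weights and -0.24 with percent mapped as a covariate. Aqp8 was 0.25 with sample weights, and Acta1 0.063 after the GC content and length correction. In the leave-one-out fits Acta1 ran from -0.28 to 0.15, Aqp8 ran from -1.38 to 0.40, Car4 ran from -0.51 to 0.30, and Cldn4 ran from -0.038 to 0.42. There, Cldn8 ran from -0.21 to 0.21, Fabp4 ran from -0.078 to 1.11, Kit ran from -0.29 to 0.26, and Trpm6 ran from -0.0047 to 0.64. Of 1246 list medians, 11 moved by more than the spread between libraries, among them pancreas and proximal gut markers (0.35, and -0.31 to 0.51 in the leave-one-out fits). Depth per gene is not given by FPKM, so no counting error was computed, and 4 against 5 libraries limit what an adjusted test can call. The cause of these changes was not tested.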

Other observations

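Several lists that the waters could have touched lay close to level. Nuclear-encoded subunits of oxidative phosphorylation had a median difference of 0.01 over 27 tested genes, with 14 above 0. Only Cox8b had no overlap between HMLS and TM (3.7%, near the 1.63% of all genes). Genes of sodium absorption regulated by aldosterone had a median of -0.06 over 16 genes and 0 separated; Nr3c2, the aldosterone receptor, ran from 38.2 to 87.0 FPKM in HMLS and from 35.3 to 57.9 in TM. Heat shock genes had 8 of 16 above 0 and a median of 0.02, and cholesterol synthesis genes a median of 0.11 over 20.

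Among the glutathione and redox enzymes 16 of 26 differences were above 0 and the median was 0.09, close to level, with 0 separated. Gclc, the catalytic subunit that limits glutathione synthesis, stood at 152, 90.8, 63.7 and 116 FPKM in HMLS3, HMLS6, HMLS7 and HMLS8 and at 61.4, 69.2, 59.1, 48.5 and 85.1 in TM3, TM5, TM6, TM7 and TM8. Gclm, its partner, ran from 48.7 to 73.7 and from 38.2 to 58.2, while Gpx2 (-0.70), Sod3 (-0.75), Gpx3 (-0.55) and Gsta4 (-0.41) had lower means in HMLS; these 4 were named after their values were seen. Enteroendocrine genes had 13 of 14 differences below 0 with a median of -0.28, or -0.55 without HMLS3; Gcg, the precursor of glucagon-like peptides, ran from 18.4 to 42.2 in HMLS and from 33.4 to 60.2 in TM. Of 43 lists, 28 held no gene whose HMLS and TM libraries were apart.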
